A study of Homo sapiens with 28 samples.

Results

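The SOX17 locus was described here as every consensus accessibility peak that lies within 200 kb of the SOX17 gene body on chromosome 8. The rule gave 28 peaks of 105048 in the whole table. The locus was chosen by its fold changes between the population adapted to the highest dose (T320) and untreated cells (C), so all values of that contrast are given below as a description, without a test. Chromatin accessibility had been measured by ATAC-seq, in which a transposase inserts adapters into open DNA, so that a peak with more reads was open more often or in more cells. The material was Kuramochi, an established line of high-grade serous ovarian cancer that the labels give as epithelial and BRCA2-mutant. All groups carry that genotype and come from that 1 line.

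The 7 adapted populations, from T5 by doublings to T320, were kept at the olaparib dose (in uM) that names them, and were sorted for low CD24 and high CD44. Olaparib inhibits PARP1 and PARP2 and is used against tumours with BRCA mutations. P10 and P320 cells had been exposed to 10 or 320 uM olaparib for 9 days, and no sort is named for them. The untreated population, C, was also sorted on CD24 and CD44. Sort and adaptation therefore cannot be told apart in T cells against P cells, nor sort and exposure in P cells against C. The P libraries also differed from those of C and T in depth and in how their replicates related, as given below. Whether they were handled apart is not stated in the labels used here, and that cannot be told apart from sort, adaptation or exposure either. Each of the 10 groups had 2 libraries with 9627970 to 29699950 counts each. The labels do not say that the 2 came from separate cultures, so the p-values measure the spread between libraries, which may be technical. In bulk libraries, fewer cells with an open site and less opening per cell cannot be told apart.

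SOX17 is an HMG-box transcription factor of the SOXF subgroup, together with SOX7 and SOX18. It is needed for definitive endoderm and for arterial endothelium, and it marks the Müllerian lineage, in which fallopian tube secretory cells and serous ovarian cancer cells express it. In ovarian cancer cells it is known to bind DNA together with PAX8, the other defining factor of that lineage.

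SOX17 (gene 64321) spans positions 54457935 to 54460892 of chromosome 8 in GRCh38, 2958 bp, and is transcribed toward rising coordinates. Its gene-end peak, the peak with the highest mean count within 1 kb of either end of the gene, runs from 54457619 to 54460037 and covers 2103 bases of the gene body. Of the other peaks, 13 lie below the gene and 14 above it. Each is named here by its distance from the gene body in kb, with a minus sign below the gene, which is upstream of it. By RefSeq, 14 peaks overlap an annotated gene and 14 overlap none. The -75.1 kb peak lies in the lncRNA gene LOC105375840, and the -25.7, -11.3 and -2.6 kb peaks lie in the lncRNA gene LOC105375841. The +4.9 and +8.9 kb peaks overlap LOC100129098, annotated as protein coding. The 7 peaks from +99.7 to +171.6 kb lie in RP1, which encodes a microtubule-binding protein of photoreceptors. The other peaks outside SOX17 are intergenic. At the edges of the rule, the -197.6 kb peak was the lowest inside and averaged 2.45 CPM (counts per 1000000, scaled by TMM, the trimmed mean of M-values) in T320 and 9.57 CPM in C. The nearest peak outside on that side, at -212.4 kb, averaged 4.97 CPM in T320 and 7.68 CPM in C. On the other side, the +171.6 kb peak averaged 6.90 CPM in T320 and 6.84 CPM in C, and the next peak, at +240.6 kb, averaged 2.26 CPM in T320 and 2.36 CPM in C.

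The gene-end peak was most open in the cells exposed for 9 days and least open in the population adapted to the highest dose. It was also the peak with the highest mean level over the 10 groups, at 31.7 CPM. In C it measured 26.0 and 47.3 CPM. The adapted populations gave 21.3 and 23.6 CPM in T5, 21.4 and 24.8 CPM in T10, 24.6 and 30.0 CPM in T20, and 24.0 and 27.5 CPM in T40. At higher doses they gave 19.3 and 20.5 CPM in T80, 15.0 and 15.5 CPM in T160, and 13.0 and 11.8 CPM in T320. All libraries of T5, T10, T80, T160 and T320 thus lay below both C libraries, while T20 and T40 overlapped the range of C. Such a full separation below C was common: it held at 26.5% of all peaks in T5, 28.7% in T10, 31.7% in T80, 32.1% in T160 and 33.0% in T320. P10 measured 59.1 and 59.6 CPM and P320 measured 74.3 and 74.5 CPM, above every other library. Over all peaks, 32.3% had both P10 libraries above both C libraries, and 26.7% had both P320 libraries above them. The group means ran from 74.4 ± 0.138 CPM in P320 and 59.4 ± 0.316 CPM in P10 through 36.7 ± 15.1 CPM in C to 15.2 ± 0.348 CPM in T160 and 12.4 ± 0.837 CPM in T320 (SD, n = 2 each). In that order, the neighbours C, T20, T40, T10 and T5 overlapped one another in turn, and the other neighbours did not.

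**Figure D1:**
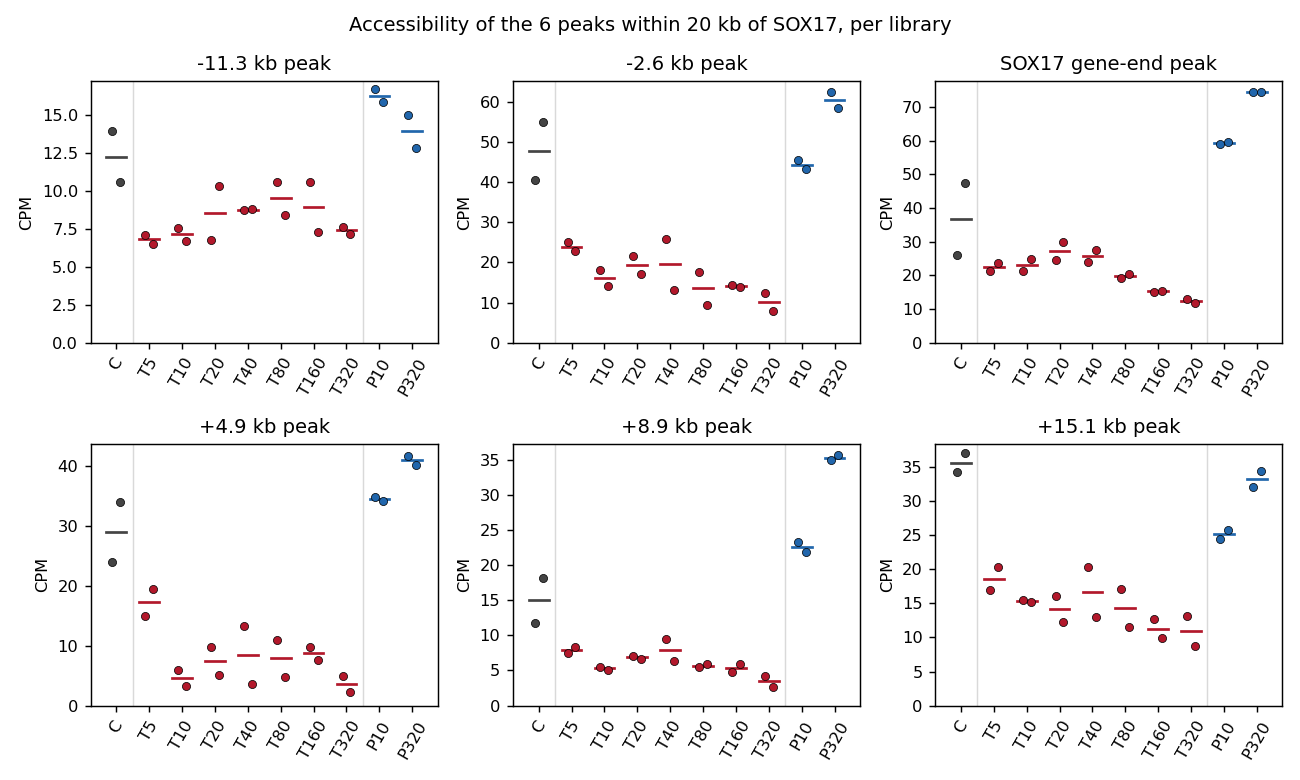
CPM per library (points) and group mean (lines) of the 6 peaks within 20 kb of SOX17, for C, the adapted populations T5 to T320 and the 9-day exposed cells P10 and P320, with a panel for each peak and the vertical axis starting at 0. At the gene end the P320 libraries stand at 74.3 and 74.5 CPM, the C libraries at 26.0 and 47.3 CPM and the T320 libraries at 13.0 and 11.8 CPM.

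The contrast that chose the locus gave a fitted log2 fold change of -1.57 (SE 0.22) for the gene-end peak, T320 over C. In it, 2 of the 28 peaks were past the threshold upward and 13 downward, where 15.0% and 15.5% of all peaks were. The threshold used throughout was a Benjamini-Hochberg adjusted p below 0.05 in edgeR's quasi-likelihood test over all peaks, together with at least a doubling or halving. A peak past it is called gained or lost below. Counts given for another scaling, without a fold minimum or with a library left out have no share of all peaks beside them. The median log2 fold change of the 28 was -1.05 and that of all peaks -0.01. Nothing was read from these counts, because the choice of the locus used them.

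The comparison of T10 with P10 sets adapted against 9-day exposed cells at the same dose and uses none of the 4 libraries that chose the locus. At the gene end, T10 had 21.4 and 24.8 CPM and P10 had 59.1 and 59.6 CPM, so the groups were well apart. The peak was lost, with a log2 fold change of -1.36 (SE 0.22, edgeR adjusted p = 7.7e-05), and the call held in all 12 alternatives. Among these, the fit with no filter could not change it, because the filter of the main fit removed 0 peaks. Each gene with a gene-end peak was given its highest one, which makes 12833 peaks, and 4.51% of these had a lower value in this comparison. The peaks close to the gene fell with it. The -2.6 kb peak measured 18.1 and 14.2 CPM in T10, against 45.4 and 43.2 CPM in P10, a log2 fold change of -1.46 (SE 0.30, edgeR adjusted p = 6.5e-04). The +4.9 kb peak measured 5.90 and 3.32 CPM in T10, against 34.8 and 34.1 CPM in P10, a log2 fold change of -2.94 (SE 0.48, edgeR adjusted p = 1.1e-04). At +8.9 kb the levels were 5.47 and 5.12 CPM in T10 and 23.2 and 21.8 CPM in P10, with a log2 fold change of -2.09 (SE 0.24, edgeR adjusted p = 5.0e-06). At all 3 peaks, each T10 library was below each P10 library, which was also so at 38.8% of all peaks. The -11.3 kb peak was lost too, at a log2 fold change of -1.19 (SE 0.23, edgeR adjusted p = 4.7e-04). The +15.1 kb peak, at 15.5 and 15.2 CPM in T10 against 24.4 and 25.8 CPM in P10, had a log2 fold change of -0.71 and did not reach a halving.

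Further from the gene, T10 did not differ from P10 in 1 direction. Of the 28 peaks, 5 were gained and 8 lost, where 17.8% of all peaks were gained and 15.1% lost. Without replicate 2 of T10 the counts were 1 gained and 7 lost. The 5 gained peaks were those at -177.2, -148.6, -120.2, -25.7 and +49.4 kb, and the largest of these differences was 1.47 (log2, SE 0.26, edgeR adjusted p = 1.7e-04) at -120.2 kb. The -177.2, -148.6 and -25.7 kb peaks were not gained without replicate 2 of T10, and the +49.4 kb peak was not gained with any 1 of the 4 libraries left out. The 3 lost peaks beyond 20 kb, at +101.8, +147.1 and +168.1 kb, lie in RP1. The +147.1 kb peak had the lowest level of all 28, at 1.08 CPM on average, and was not lost without replicate 2 of T10 or without either P10 library.

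At 320 uM the gap at the gene was wider. The gene-end peak had 13.0 and 11.8 CPM in T320 and 74.3 and 74.5 CPM in P320, a log2 fold change of -2.58 (SE 0.23, edgeR adjusted p = 1.8e-07). Of the same 12833 peaks, 42, or 0.327%, had a lower value. The call held in every alternative tried, at -2.65 to -2.13. With 1 library left out the value was -2.65 to -2.51. This comparison shares the T320 libraries with the contrast that chose the locus, so it is not independent of that choice. At -2.6 kb, T320 had 12.4 and 7.93 CPM and P320 had 62.4 and 58.5 CPM, a log2 fold change of -2.59 (SE 0.31, edgeR adjusted p = 3.0e-06). At +4.9 kb, T320 had 4.97 and 2.33 CPM and P320 had 41.7 and 40.1 CPM, a log2 fold change of -3.56 (SE 0.50, edgeR adjusted p = 1.6e-05). At +8.9 kb, T320 had 4.28 and 2.69 CPM and P320 had 34.9 and 35.6 CPM, a log2 fold change of -3.38 (SE 0.26, edgeR adjusted p = 7.1e-08). Each of these 3 peaks had its lowest group mean in T320. The +15.1 kb peak, at 13.1 and 8.78 CPM in T320 and 32.0 and 34.4 CPM in P320, was lost as well, with a log2 fold change of -1.62 (SE 0.25, edgeR adjusted p = 3.4e-05).

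Of the 28 peaks, 4 were gained and 11 lost in T320 against P320, where 19.7% of all peaks were gained and 14.5% lost. Scaling by the gene-end peaks alone moved the peaks of the locus by 0.46 (median, log2) in this comparison and gave 5 gained and 7 lost. The +93.0 kb peak, which had the highest level per kb of peak width (23.0 CPM per kb), had 10.7 and 11.9 CPM in T320 and 31.9 and 31.6 CPM in P320, and its log2 fold change was -1.49 (SE 0.20, edgeR adjusted p = 7.7e-06). The -75.1 kb peak, the next highest per kb, had 12.8 and 19.9 CPM in T320 and 27.2 and 27.5 CPM in P320, and its difference of -0.73 (log2, SE 0.30, edgeR adjusted p = 0.053) did not pass. The 4 gained peaks were at -188.4, -120.2, -118.4 and +168.1 kb. Of these, the -120.2 kb peak measured 6.76 and 4.93 CPM in T320, against 1.48 and 1.60 CPM in P320, a log2 fold change of 1.90 (SE 0.28, edgeR adjusted p = 2.1e-05). The -188.4 kb peak measured 13.9 and 18.8 CPM in T320, against 7.80 and 7.73 CPM in P320, a log2 fold change of 1.08 (SE 0.23, edgeR adjusted p = 7.4e-04) that fell to 0.84 and was not called without replicate 2 of T320. The -118.4 kb gain was not called without replicate 1 of T320 or without replicate 1 of P320.

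**Figure D2:**
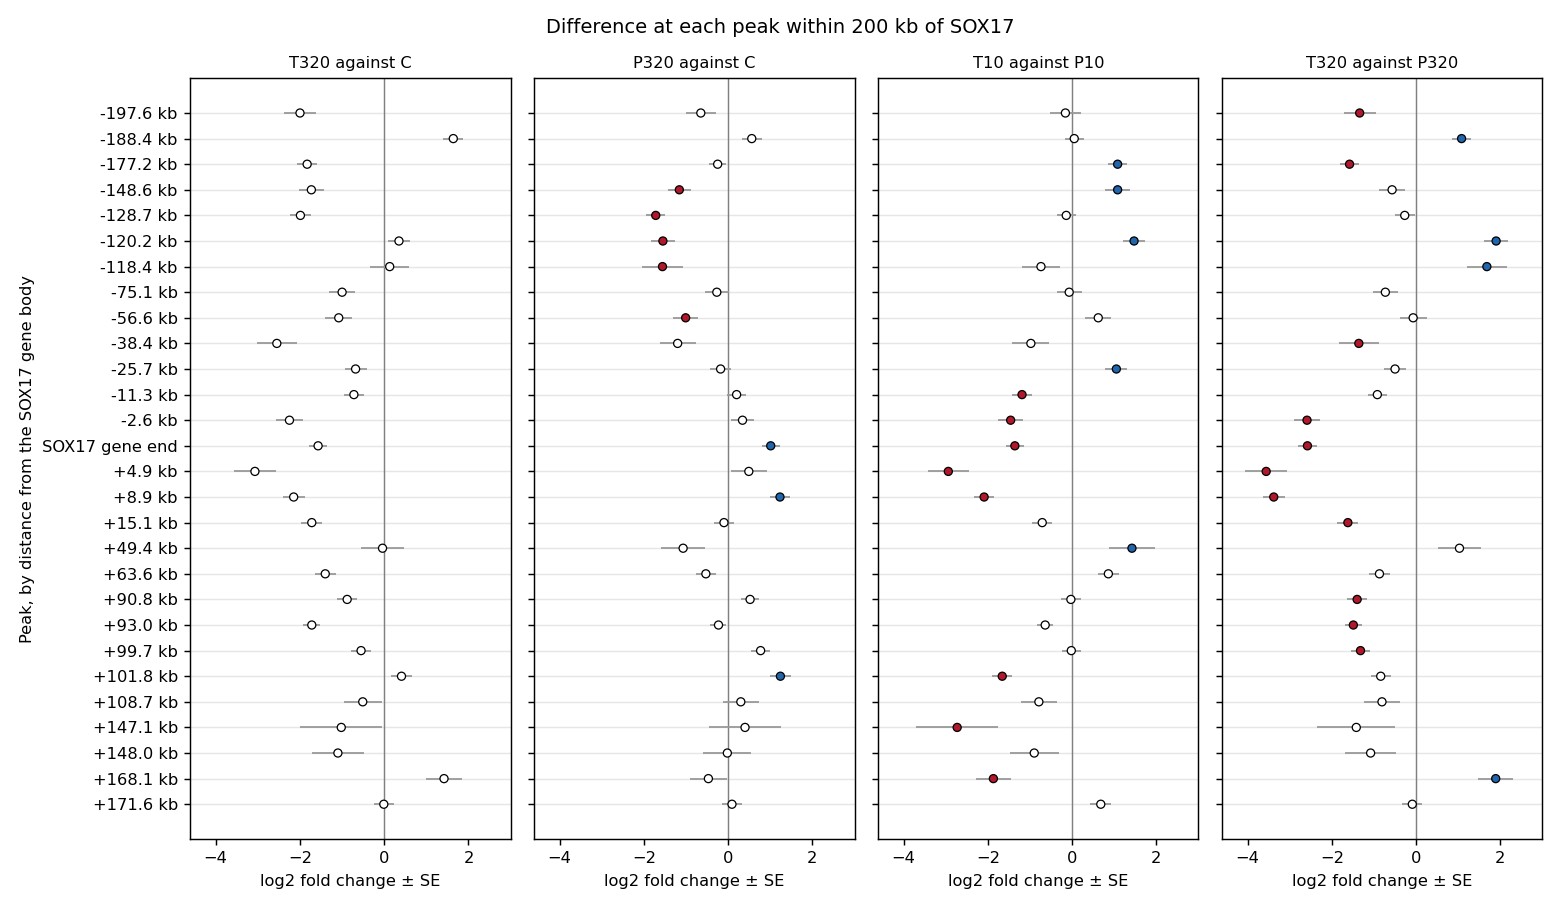
Log2 fold change (points) and SE (bars) of each of the 28 peaks, by distance from the SOX17 gene body in kb, in T320 against C, P320 against C, T10 against P10 and T320 against P320. Red points were lost, blue points gained and white points not called. T320 against C carries no call marks because it chose the locus, and the largest losses in T320 against P320 sit at the gene, with -3.56 at +4.9 kb.

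The gene-end peak was higher in the 9-day exposed cells than in C, but this difference was less secure. Sort and exposure cannot be told apart in it. The comparisons of P320 and P10 with C share both C libraries with the contrast that chose the locus, so they are not independent of that choice. P320 had 74.3 and 74.5 CPM and C had 26.0 and 47.3 CPM, a log2 fold change of 1.01 (SE 0.21, edgeR adjusted p = 0.0029), just past the threshold. It was 0.65 without replicate 1 of C and 1.51 without replicate 2 of C. It was 0.56 when the libraries were scaled by gene-end peaks alone, which moved the peaks of the locus by -0.48 (median, log2). Neither 0.65 nor 0.56 passed, and the value was just under the minimum with total-count scaling (0.95) and with an offset for each 5 Mb window (1.00 after rounding). Gene-end peaks in general were more open in P320. Of the 15325 peaks within 1 kb of any gene end, 14% were gained and 1.1% lost, their median log2 fold change was 0.38, and they held 38.2% and 37.5% of the counts in P320, against 27.8% and 31.8% in C. SOX17 stood above 85.2% of the 12833 peaks that are the highest of a gene. In P10 against C the gene-end value of 0.69 (log2, SE 0.21, edgeR adjusted p = 0.018) did not reach a doubling, and the difference of P320 from P10 was 0.32 (log2, edgeR adjusted p = 0.27).

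Of the 28 peaks, 3 were gained and 5 lost in P320 against C, where 3.94% of all peaks were gained and 7.91% lost. With gene-end scaling 0 were gained and 8 lost. Without replicate 1 of C the counts were 1 gained and 4 lost, and without replicate 1 of P320 they were 3 gained and 2 lost. The +8.9 kb peak measured 34.9 and 35.6 CPM in P320, against 11.7 and 18.2 CPM in C, a log2 fold change of 1.23 (SE 0.23, edgeR adjusted p = 0.0012), and it was 0.95 and not called without replicate 1 of C and 0.77 and not called with gene-end scaling. The +101.8 kb peak in RP1 measured 13.7 and 16.1 CPM in P320, against 7.14 and 5.56 CPM in C, a log2 fold change of 1.24 (SE 0.25, edgeR adjusted p = 0.0021). In P10 the same peak measured 30.2 and 28.2 CPM, a log2 fold change over C of 2.21 (SE 0.25, edgeR adjusted p = 2.0e-05). The 5 lost peaks all lie below the gene, at -148.6, -128.7, -120.2, -118.4 and -56.6 kb. The -128.7 kb peak measured 6.53 and 4.98 CPM in P320, against 17.8 and 20.2 CPM in C, a log2 fold change of -1.72 (SE 0.23, edgeR adjusted p = 1.0e-04). Of the 8 calls, 2 held in every alternative, the losses at -128.7 and -120.2 kb. In P10 against C, 3 peaks were gained and 4 lost, where 9.32% of all peaks were gained and 12.8% lost, and none of the 6 peaks within 20 kb was among them. In P320 against P10, 1 was gained and 4 lost, where 4.10% and 9.68% of all peaks were, and without replicate 1 of P320 the counts were 0 gained and 2 lost.

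Along the adapted populations, the number of lost peaks against C was larger at the higher doses. Of the 28, 3 were lost and 1 gained in T5, where 4.46% of all peaks were lost and 4.73% gained. T10 had 6 lost and 2 gained, where 9.22% and 8.51% of all peaks were. The counts were again 6 lost and 2 gained in T20, where 13.3% and 11.2% of all peaks were, and in T40, where 13.3% and 11.8% were. T80 had 9 lost and 1 gained, where 13.6% and 12.3% of all peaks were, and T160 had 11 lost and 1 gained, where 12.5% and 11.0% were. These comparisons and T320 against C share the 2 libraries of C, so they are not independent of the choice of the locus. The total of gained and lost peaks was 1 in T5 without either of its libraries and 2 without replicate 2 of C. It was 5 in T10 and 5 in T20 without replicate 2 of the population or replicate 2 of C, and 4 in T40 without its replicate 2.

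The gene-end peak itself passed the threshold below T320 in T160 alone, at a log2 fold change over C of -1.28 (SE 0.22, edgeR adjusted p = 2.8e-04). It was -0.77 and did not pass without replicate 2 of C, the deeper and higher of the C libraries. The values from T5 to T80 were -0.71, -0.67, -0.43, -0.51 and -0.89. The 3 peaks lost in T5 lay at -197.6, -38.4 and -2.6 kb, so they were not all close to the gene. The -197.6 kb peak was at 7.55 and 11.6 CPM in C and 2.25 and 4.0 CPM in T5, a log2 fold change of -1.60 (SE 0.37, edgeR adjusted p = 0.0082). The -38.4 kb peak was at 20.4 and 21.2 CPM in C and 8.53 and 7.16 CPM in T5, a log2 fold change of -1.41 (SE 0.43, edgeR adjusted p = 0.038) that held in 6 of 12 alternatives. The -197.6 kb loss held in 10 of 12 and was not called without replicate 1 of T5 (-1.27) or without replicate 2 of C (-1.25). The -2.6 kb peak was at 40.5 and 55.0 CPM in C, 25.0 and 22.9 CPM in T5 and 18.1 and 14.2 CPM in T10, and was lost in both adapted populations. The T5 loss, at a log2 fold change of -1.0 (SE 0.29, edgeR adjusted p = 0.028), held in 5 of 12 alternatives. It was not called without replicate 2 of C (-0.76), without replicate 1 of T5 (-1.06) or without replicate 2 of T5 (-0.94). The call was also not made with total-count scaling, gene-end scaling, DESeq2 or the compared groups alone. The +4.9 kb peak was at 24.0 and 34.0 CPM in C, 15.0 and 19.5 CPM in T5 and 5.90 and 3.32 CPM in T10, with a log2 fold change for T10 over C of -2.70 (SE 0.48, edgeR adjusted p = 6.1e-04). The +15.1 kb peak was at 34.3 and 37.0 CPM in C and 15.5 and 15.2 CPM in T10, a log2 fold change of -1.21 (SE 0.24, edgeR adjusted p = 0.0014).

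Within the 7 adapted populations alone, without C, the gene-end peak had a slope of -0.15 log2 units per doubling of dose (SE 0.04), under the minimum of 0.25 set for a call. This fit includes the 2 T320 libraries that chose the locus, so it is not independent of that choice. In T5 to T160 alone, a fit added after the data were seen, the slope was -0.10 (SE 0.05, edgeR adjusted p = 0.14) and did not pass. There, 1 of the 28 peaks passed upward and 3 downward, where 2.54% and 3.87% of all peaks did. With T320 included, 1 of the 28 passed upward and 2 downward, where 3.54% and 2.58% of all peaks did. The 2 downward ones were at -177.2 kb and -128.7 kb, each with a slope of -0.28 (SE 0.05). The -177.2 kb peak was at 17.1 and 22.5 CPM in T5, 19.1 and 19.2 CPM in T20, 7.04 and 7.10 CPM in T80 and 7.19 and 5.69 CPM in T320. The upward one, at +168.1 kb, had a slope of 0.26 (SE 0.05). It was at 2.61 and 1.43 CPM in T5 and 6.25 and 6.45 CPM in T320. Its call was not made with total-count scaling (0.25 after rounding) or gene-end scaling (0.24), nor without replicate 2 of T5 (0.22) or replicate 2 of T10 (0.23), while the 2 downward calls held in all 22 alternatives. The number of peaks called was 5 without replicate 1 of T5 or without replicate 1 of T10.

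The difference between the 10 and 320 uM groups was unlike in adapted and in 9-day exposed cells at several peaks. T10 and T320 are separate adapted populations, so dose and adaptation cannot be told apart in T320 against T10. For the gene end, the log2 difference of T320 from T10 minus that of P320 from P10 was -1.23 (SE 0.30). It uses the T320 libraries of the contrast that chose the locus, so it is not independent of that choice. It was -0.81 with gene-end scaling and -1.07 with the window offset, and neither passed. Of the 28 peaks, 3 had a difference past the threshold upward and 8 downward, where 13.6% and 10.0% of all peaks did. With gene-end scaling the counts were 4 upward and 3 downward.

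**Figure D3:**
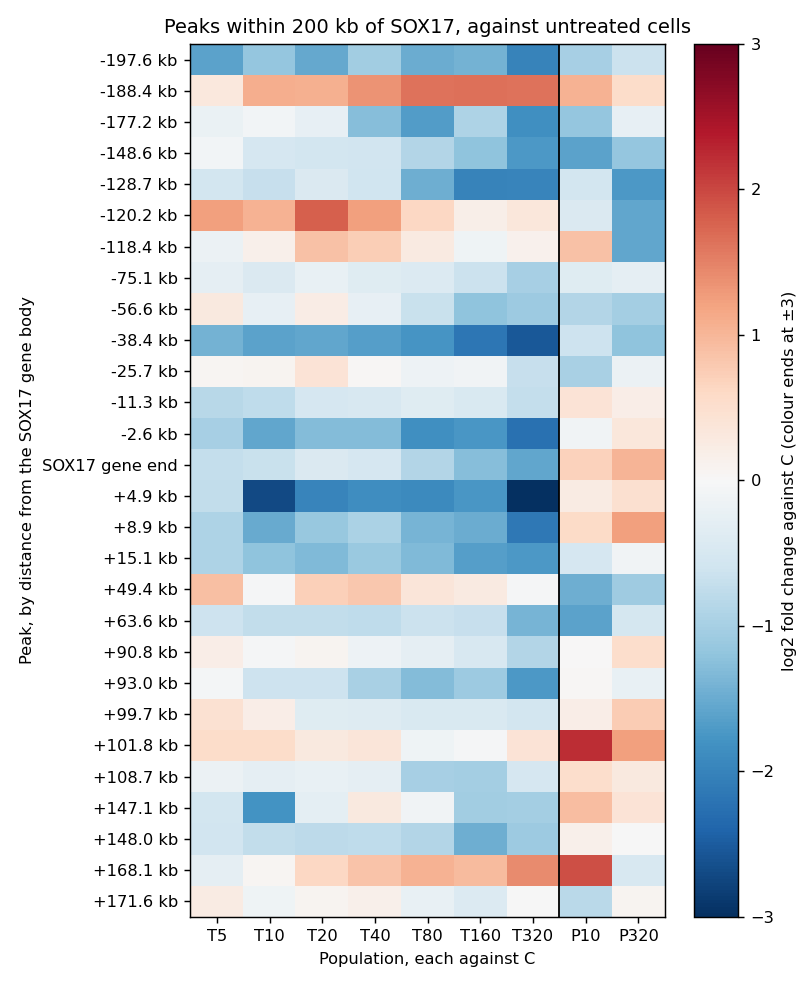
Log2 fold change against C of each of the 28 peaks (listed by distance from the SOX17 gene body) in the adapted populations T5 to T320 and in P10 and P320, with blue below and red above C and the colour scale ending at ±3. The gene-end row is -1.57 in T320 and 1.01 in P320, and the -188.4 kb row is above C in all 9 columns.

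Not every peak of the locus followed the gene end. Of the 28, 13 had their lowest group mean in T320 and 6 their highest in P320, while 8 were highest in C and 7 in P10. Over the 10 group means, the Pearson correlation of log2(CPM + 0.5) with the gene-end peak was 0.97 for the +8.9 kb peak, 0.94 at -2.6 kb, 0.90 at +148.0 kb, 0.87 at +15.1 kb and 0.86 at +4.9 kb. It was -0.66 at +49.4 kb, -0.59 at -120.2 kb and -0.58 at -188.4 kb. These are descriptions over groups that share libraries and scaling. The -188.4 kb peak was at 6.81 and 3.96 CPM in C, 7.23 and 5.95 CPM in T5, 12.3 and 10.2 CPM in T10, 15.0 and 17.4 CPM in T80 and 16.2 and 16.9 CPM in T160. It was gained over C in T160 by 1.65 (log2, SE 0.24, edgeR adjusted p = 7.1e-05). The -38.4 kb peak was at 20.4 and 21.2 CPM in C, 8.38 and 5.55 CPM in T10 and 6.26 and 3.08 CPM in T160, with a log2 fold change for T160 over C of -2.17 (SE 0.46, edgeR adjusted p = 0.0014).

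The low levels in T320 were deepest close to the gene. The 6 peaks within 20 kb, a set picked after the values were seen and so not tested, summed to 55.4 and 40.7 CPM in T320, 260.4 and 255.9 CPM in P320 and 150.4 and 202.1 CPM in C. Their sum in T320 was 0.186 times that in P320. The 22 peaks beyond 20 kb summed to 135.7 and 126.1 CPM in T320 and 207.5 and 200.9 CPM in P320, a ratio of 0.641. The 402 peaks from 200 kb to 5 Mb away summed to 3059.4 and 3445.9 CPM in T320 and 3376.1 and 3367.0 CPM in P320, a ratio of 0.965. The ratio of T10 to P10 was 0.355 within 20 kb, 0.886 beyond 20 kb and 1.17 from 200 kb to 5 Mb. Subtracting the median shift of each 5 Mb window of the genome from each library left the gene-end call in place in both comparisons of T with P cells.

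**Figure D4:**
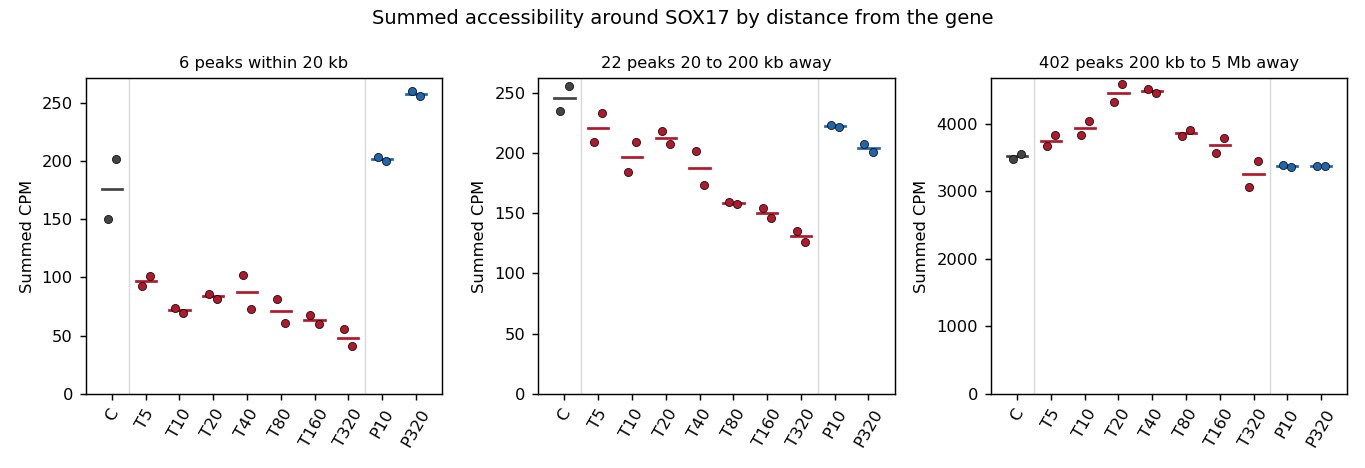
Summed CPM per library (points) and group mean (lines) of the 6 peaks within 20 kb of SOX17, the 22 peaks 20 to 200 kb away and the 402 peaks 200 kb to 5 Mb away, in C, T5 to T320, P10 and P320, with each vertical axis starting at 0. Within 20 kb the T320 libraries sum to 55.4 and 40.7 CPM, below every other group, while 200 kb to 5 Mb away they span the P320 libraries and lie below C.

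Among 12790 gene-end peaks at 2 CPM or more in their highest group, those of DTX4, NMRAL1, MPPED2, B3GALNT1 and RASGEF1B were most like that of SOX17 over the 10 group means, with Pearson correlations of 0.983, 0.981, 0.980, 0.975 and 0.975. The DTX4 peak is shared with LOC124902601. The RASGEF1B peak averaged 6.76 CPM in T320, 34.8 CPM in P320 and 15.7 CPM in C. The NMRAL1 peak had a narrower range, at 15.4 CPM in T320, 35.2 CPM in P320 and 24.8 CPM in C.

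The labelled cell type was set against marker genes by their gene-end peaks. Of 10 epithelial markers 9 had such a peak, and their sum was 124.5 to 136.3 CPM in T320, 275.2 to 278.0 CPM in P320 and 195.2 to 196.8 CPM in C. KRT7 had none. Of 9 endothelial markers, a cell type in which SOX17 is also known, 6 had one, and PECAM1, CDH5 and TEK had none. Their sum was 39.9 to 40.4 CPM in T320, 50.1 to 53.5 CPM in P320 and 40.6 to 42.4 CPM in C. The sums of 7 blood markers (4 with a peak) were 27.4 to 28.3 CPM in T320, 37.5 to 37.6 CPM in P320 and 28.0 to 30.2 CPM in C. All 6 mesenchymal markers had a peak, and their sum was 103.4 to 126.0 CPM in T320, 98.3 to 103.6 CPM in P320 and 60.5 to 74.6 CPM in C. In T320 against P320, 1 of these 6 was gained and 0 lost, where 4.54% of the 15325 gene-end peaks were gained and 20.2% lost. Of 6 serous ovarian markers, SOX17 among them, 5 had a peak, with a sum of 81.7 to 94.7 CPM in T320, 255.6 to 258.5 CPM in P320 and 140.1 to 215.3 CPM in C. Of this sum, SOX17 alone averaged 12.4 CPM in T320, 74.4 CPM in P320 and 36.7 CPM in C. The serous sum is therefore not independent of the choice of the locus. Of 6 hepatocyte and endoderm markers, 2 had one, with a sum of 2.87 to 6.34 CPM in T320, 18.5 to 18.7 CPM in P320 and 20.7 to 27.3 CPM in C. In T320 against P320, 3 of 9 epithelial, 2 of 6 endothelial, 1 of 4 blood, 3 of 5 serous and 2 of 2 hepatocyte and endoderm peaks were lost. The lost serous peaks include that of SOX17 itself. In these lists 1 endothelial peak was gained and no other. The part of these marker differences in the values at SOX17 was not tested.

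Other genes of the Müllerian and serous lineage were read at their gene ends, from a list drawn up with earlier results of these data known. In T320 against P320, 0 of 18 peaks were gained and 9 lost, with a median log2 fold change of -0.98, against -0.40 over the 15325 peaks at any gene end, of which 4.54% were gained and 20.2% lost. MSLN, which encodes the surface protein mesothelin, averaged 10.2 CPM in T320 and 47.4 CPM in P320, a log2 fold change of -2.22 (SE 0.25, edgeR adjusted p = 1.5e-06). WT1, a transcription factor used as a serous marker, averaged 18.0 CPM in T320 and 61.5 CPM in P320, a log2 fold change of -1.77 (SE 0.20, edgeR adjusted p = 1.7e-06). MECOM, a zinc finger factor of the same lineage, had -1.72 (log2, SE 0.18, edgeR adjusted p = 9.6e-07). PAX8, the known partner of SOX17, averaged 27.8 CPM in T320 and 43.7 CPM in P320, and its difference of -0.65 (log2, SE 0.21, edgeR adjusted p = 0.015) did not reach a halving. In T10 against P10, 1 of the 18 was gained and 4 were lost, where 6.15% of the 15325 gene-end peaks were gained and 11.0% lost. WT1 was among the lost ones, at -1.22 (log2, SE 0.20, edgeR adjusted p = 8.4e-05). PAX8 was at 29.1 CPM in T10 and 27.0 CPM in P10.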

How the data were processed

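The authors deposited 1 table of read counts per consensus peak (whole-number counts, not normalised), with 2 columns for each of 10 groups. Per the submitters' processing notes, reads were handled with Trim Galore, Bowtie2, SAMtools and Picard, and MACS2, HOMER, deepTools and DESeq2 are also named, on hg38 (GRCh38). How Tn5 insertions were counted is not given in the sources used here, and whether starts count from 0 is not stated, so a start may differ by 1 base. The labels list 28 samples; 8 samples of T320 cells with or without drug, some after drug-free culture, were not analysed here.

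Counts of all 105048 peaks were fitted once with edgeR 4.0.16 (R 4.3.3; group means, TMM, robust quasi-likelihood F test, filterByExpr, which removed 0 peaks), with Benjamini-Hochberg adjustment over all peaks. The dose trend was fitted to the 14 libraries of T5 to T320. Library totals of 9627970 to 29699950 set the precision. SE covers counting and the spread between libraries. Replicates of a group differed by more than sampling noise. Gene positions came from RefSeq (GRCh38.p14). Described in full were the gene-end peak and the 8 others with the highest mean CPM; others were added after their values were seen. The members, the gene lists and the tests were chosen with earlier results of these data known. The script was tested on simulated data. Alternatives were DESeq2 1.42.0, scaling by gene-end peaks alone or by total counts, a 5 Mb window offset, a replicate block, a stricter filter (2 CPM in 2 libraries), no filter, no fold minimum, the compared groups alone, and each library left out. As filterByExpr removed 0 peaks, no filter repeated the main fit of all groups and could not change a call there. Dropping the fold minimum could only add calls. A trend in T5 to T160 alone was added after the data were seen.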

Additional observations from a re-analysis of the deposited data

Results flagged for a closer look

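At 11 of the 28 peaks the difference between the 320 and 10 uM groups was unlike in adapted and in 9-day exposed cells. The test was of the log2 difference of T320 from T10, minus that of P320 from P10 (edgeR, all peaks adjusted together). T10 and T320 are separate adapted populations, so dose and adaptation cannot be told apart in T320 against T10. An effect of dose alone was therefore not tested. The whole value is named the difference of dose effects below, as a label only. The difference uses the T320 libraries of the contrast that chose the locus, so it is not independent of that choice. Of all peaks, 13.6% had such a difference upward and 10.0% downward. With gene-end scaling, 4 of the 28 peaks did upward and 3 downward. All values come from groups of 2 libraries.

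At 8 peaks the difference was negative. The gene-end peak had -1.23 (SE 0.30), with means of 12.4 CPM in T320, 23.1 CPM in T10, 74.4 CPM in P320 and 59.4 CPM in P10. The +8.9 kb peak had -1.29, with 3.48 CPM in T320, 5.29 CPM in T10, 35.2 CPM in P320 and 22.5 CPM in P10. The most negative value was -2.66 (SE 0.32) at -177.2 kb, where T320 had 6.44 CPM and T10 had 21.4 CPM, while P320 had 19.1 CPM and P10 had 10.1 CPM. The others were -1.65 at -148.6 kb, -1.55 at -25.7 kb, -1.73 at +63.6 kb, -1.37 at +90.8 kb and -1.30 at +99.7 kb. At each of these 8 peaks the mean was lower in T320 than in T10 and higher in P320 than in P10.

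At 3 peaks it was positive. The +168.1 kb peak in RP1 had 3.75 (SE 0.58), with 6.35 CPM in T320 and 2.57 CPM in T10, while P320 had 1.71 CPM and P10 had 9.12 CPM. The -118.4 kb peak had 2.42, with 4.10 CPM in T320 and 4.08 CPM in T10, while P320 had 1.24 CPM and P10 had 6.75 CPM. The -188.4 kb peak had 1.03, with 16.3 CPM in T320 and 11.3 CPM in T10, while P320 had 7.76 CPM and P10 had 10.9 CPM. Of the 11 differences, 4 held in every alternative tried.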

How the results depend on the processing

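Of the alternatives, none turned the sign of a called value. For the gene-end peak, the losses in T10 against P10 (-1.47 to -1.26) and in T320 against P320 (-2.65 to -2.13) held in each. In P320 against C it was not called with total-count scaling (0.95), gene-end scaling (0.56) or the window offset (1.00). The difference of dose effects was not called with gene-end scaling (-0.81) or the window offset (-1.07). In T80 against C it was called with gene-end scaling (-1.02), and P320 against P10 was -0.00 with that scaling. With no fold minimum, T5 (-0.71), T10 (-0.67), T80 (-0.89) and P10 (0.69) against C and the dose trend (-0.15) were called. With 1 library left out, its ranges against C were -1.07 to -0.21 in T5, -1.03 to -0.17 in T10, -0.79 to 0.07 in T20, -0.87 to -0.01 in T40, -1.25 to -0.39 in T80, -1.64 to -0.77 in T160, -1.93 to -1.07 in T320, 0.33 to 1.19 in P10 and 0.65 to 1.51 in P320. They were -1.47 to -1.26 in T10 against P10, -2.65 to -2.51 in T320 against P320, 0.32 to 0.33 in P320 against P10, -1.33 to -1.11 in the difference of dose effects and -0.18 to -0.13 in the trend.

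The number of called peaks was 2 in T5 against C with total-count or gene-end scaling. With gene-end scaling it was 7 for the difference of dose effects and 5 for the trend. With no fold minimum it was 8 in T5, 13 in T10 and 12 in P10 against C, 10 in P320 against P10 and 13 in the trend. With 1 library left out it ranged against C from 1 to 6 in T5, 5 to 8 in T10, 5 to 10 in T20, 4 to 11 in T40, 7 to 12 in T80, 8 to 14 in T160, 13 to 17 in T320, 6 to 8 in P10 and 5 to 8 in P320. It ranged from 8 to 14 in T10 against P10, 13 to 16 in T320 against P320, 2 to 5 in P320 against P10, 9 to 12 for the difference of dose effects and 3 to 5 for the trend. The cause of these shifts was not tested. No share of all peaks is given for these alternatives, so their counts are not set against one.

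The replicate numbers were not taken as pairs, with 2 per comparison. Between replicates 1 and 2, differences correlated at 0.17 to 0.58 among C and T groups and at -0.09 to 0 with a P group. The P groups thus stood apart from C and T groups, and the cause was not tested. With the replicate number as a block, the gene-end values were -1.37 in T10 against P10, -2.59 in T320 against P320 and 1.03 in P320 against C, and no gene-end call changed.

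Replicate 1 libraries of C and T groups held 9627970 to 15526256 counts, against 19092182 to 28547221 in replicate 2, so low peaks such as the +147.1 kb peak rest on few reads. The replicates were closer in depth in P10, at 22184883 and 22437074 counts, and in P320, at 29699950 and 27936456 counts.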

Other observations

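Some other SOX genes, and some genes known with SOX17 in endoderm and vessels, were also more open at their ends in P320 than in C. Gene-end peaks in general were too, and sort and exposure cannot be told apart in that comparison. In P320 against C, 4 of 15 SOX family peaks were gained and 0 lost, with a median log2 fold change of 0.64, against 14% gained, 1.1% lost and a median of 0.38 over the 15325 peaks at any gene end. SOX8, a SOXE factor, averaged 16.1 CPM in P320 and 4.87 CPM in C, a log2 fold change of 1.72 (SE 0.27, edgeR adjusted p = 3.3e-04). The SOX8 peak is also a gene-end peak of LMF1, so its values cannot be assigned to SOX8 alone. SOX7, a SOXF factor like SOX17, averaged 7.25 CPM in P320 and 2.31 CPM in C, with 1.62 (log2, SE 0.35, edgeR adjusted p = 0.0036), and SOX3 and SOX21 were the other gained ones. In T320 against P320, 5 of the 15 were lost and 0 gained, SOX13 with those 4, where 20.2% of the 15325 gene-end peaks were lost and 4.54% gained. SOX18, the third SOXF factor, averaged 14.6 CPM in T320 and 20.6 CPM in P320 and was not called.

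Of 19 endoderm and vascular regulators, 5 were gained and 0 lost in P320 against C: FOXA2, HHEX, NOTCH1, HEY1 and ERG. Of the 15325 gene-end peaks, 14% were gained and 1.1% lost. HEY1, a transcriptional repressor downstream of Notch, averaged 68.7 CPM in P320 and 22.7 CPM in C, a log2 fold change of 1.59 (SE 0.22, edgeR adjusted p = 1.2e-04). In T320 against P320, 8 of the 19 were lost and 1, RUNX1, was gained, at 1.48 (log2, SE 0.30, edgeR adjusted p = 5.8e-04), where 20.2% of the gene-end peaks were lost and 4.54% gained. In both lists, levels in T320 against P320 and in P320 against C share the P320 libraries, in which gene-end peaks held the largest share of counts. Gene-end scaling, which moved the peaks of the SOX17 locus by -0.48 (median, log2) in P320 against C, was not applied to these lists.

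Of 7 neighbouring genes on chromosome 8 with a gene-end peak, 0 were gained and 3 lost in T320 against P320, where 4.54% of the 15325 gene-end peaks were gained and 20.2% lost. In P320 against C, 2 were gained and 0 lost, where 14% of the gene-end peaks were gained and 1.1% lost. The 3 lost ones were XKR4, LYPLA1 and LOC100129098. The peak of LOC100129098 is the +4.9 kb peak of the locus itself, so it adds nothing to the values above. XKR4, 641.1 kb above SOX17, averaged 29.9 CPM in T320 and 114.7 CPM in P320, a log2 fold change of -1.93 (SE 0.23, edgeR adjusted p = 2.7e-06), and was gained in P320 over C by 1.34 (log2, SE 0.22, edgeR adjusted p = 5.3e-04). LYPLA1, on the lower side, was lost in T320 against P320 at -1.25 (log2, SE 0.18, edgeR adjusted p = 2.4e-05) and gained in P320 against C at 1.09 (log2, SE 0.18, edgeR adjusted p = 5.6e-04). The LYPLA1 peak is shared with LYPLA1-TCEA1. The nearest protein-coding gene with a peak on the lower side, MRPL15, averaged 21.3 CPM in T320, 25.3 CPM in P320 and 21.3 CPM in C and was not called in either comparison. RGS20 had 6.11 CPM in T320 and 4.35 CPM in P320, a difference of 0.49 (log2, SE 0.23, edgeR adjusted p = 0.084) that did not pass. It was gained in T10 against P10, at 1.10 (log2, SE 0.24, edgeR adjusted p = 0.0011), where XKR4 and LOC100129098, again the +4.9 kb peak, were lost. Of the gene-end peaks, 6.15% were gained and 11.0% lost in T10 against P10. ATP6V1H and TCEA1 were not called in T320 against P320 or in P320 against C. RP1 has no gene-end peak.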
